A study of Rattus norvegicus with 8 samples.

Results

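Sterol synthesis was followed through 8 genes in PC12, a rat cell line derived from a pheochromocytoma, a tumour of adrenal chromaffin cells: the enzymes Hmgcs1, Idi1, Fdps, Fdft1, Sqle, Cyp51 and Sc5d, and the feedback protein Insig1. The genes were listed by name, with earlier results of these data known. Every probe set whose annotated symbol was one of them was taken. This gave 12 of 31142 probe sets for 7 of the 8 genes: 11 were on chip A and 1, for Sc5d, was on chip B. No probe set carried the symbol Hmgcs1, the synthase at the head of the mevalonate pathway, and it was not analysed here. The 12 probe sets carried no second gene symbol.

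Total RNA had been hybridised to 8 arrays in 4 groups: PC12 cells with forskolin and PC12 cells with no forskolin, each with 2 arrays on chip A and 2 on chip B. Forskolin, spelled foreskolin in the array labels, activates adenylyl cyclase and so raises cyclic AMP. The labels give neither dose nor time of exposure, do not say what the control cells received, and name no genotype or second agent. PC12 is 1 line of tumour origin. Nothing in the labels makes the replicates separate cultures, so p-values here measure only how far these arrays differ, and that spread may be technical. The values are the authors' log2 expression values. Each chip was tested alone with limma over all its probe sets above a brightness filter, and rose and fell are used only for an adjusted p (Benjamini-Hochberg) under 0.05. Every change is forskolin minus no forskolin. Levels of different probe sets are not set against each other, since probes differ in how strongly they bind.

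Median log2 values ran from 8.15 to 8.17 over the chip A arrays and from 6.77 to 6.79 over those of chip B. The treated arrays differed in known targets of cyclic AMP. Crem rose 1.84-fold on chip A and, on its tested probe sets of chip B, 5.62-fold and 4.43-fold. On chip A, Nr4a1 rose 6.82-fold, and Fos rose on 1 of the 2 probe sets tested for it. That one stood at 5.22 (log2) without forskolin, below the level of the brightness filter, and at 9.25 with it. Of 10 chromaffin cell markers, 9 had a probe set on chip A and 6 passed the filter, among them Th at 11.64, Chgb at 11.82 and Phox2a at 12.02 (log2, mean without forskolin). Dbh, at 6.69, and both vesicular monoamine transporters lay below the filter on chip A, whose lowest mean level was 7.02. The summed chromaffin markers measured 13.66 to 13.71 without forskolin and 13.91 on both forskolin arrays, and Phox2a itself rose 1.33-fold. Of 6 adrenal cortex markers 2 passed the filter on that chip, none brighter than 7.37 without forskolin, and their sum was 9.27 to 9.33 without forskolin and 9.32 to 9.39 with it. Of 3 glial markers with a probe set, 2 passed (summed level 8.86 to 8.91 without and 8.91 to 8.93 with forskolin). Of 6 fibroblast markers 3 passed, with Col3a1 at 11.82 and the sum at 12.18 to 12.20 without and 12.19 to 12.23 with forskolin. Whether these levels have a part in the sterol results was not tested.

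Cells build cholesterol from acetyl units. The mevalonate steps make isoprenoid units, which are joined to farnesyl pyrophosphate and squalene, and squalene is then oxidised, closed into rings and trimmed to cholesterol. Most of these enzymes are targets of SREBP transcription factors, which leave the endoplasmic reticulum only when sterols are low. Insig1 holds the SREBP escort protein SCAP in that membrane. The Insig1 gene is itself a target of SREBP, so the brake is made by the pathway it restrains. In the adrenal cortex cyclic AMP carries the signal for steroid hormone synthesis, which draws on cholesterol, whereas chromaffin cells such as those behind PC12 make no steroid hormones.

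With forskolin, the RNA of Insig1 rose 1.42-fold, and that of Idi1 1.36-fold on its brighter probe set and 1.21-fold on the dimmer. Sqle rose by 1.13-fold. Fdps and Fdft1, the enzymes between Idi1 and Sqle, were not called, nor was Cyp51 after them. Sc5d, near the end of the pathway, gave different answers on its 3 probe sets, of which 1 fell. On chip A, 4 of the 11 probe sets were called higher and 1 lower, where limma called 2.03% of the 11106 tested probe sets of the chip higher and 1.26% lower, or 3.30% in all. The median change of the 11 was 0.11 (log2), against -0.01 over all tested probe sets. The genes were chosen with earlier results of these data known, so neither the share called nor the median tests them as a set. The single probe set on chip B was not called, beside 0.159% of 10693 called on that chip. All 12 passed the brightness filter, with the mean of each group above its level. Arrays of whole cultures cannot tell a change of RNA per cell from a change in the share of cells that make it.

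Promoters were set beside these changes for the 2 genes that rose most, and for Cyp51 and Fdps, neither of which was called. The sequences come from RefSeq (GRCr8) and run from 250 bases before to 50 bases after the start site each window is built on, 5′ to 3′ on the strand of the gene. That site is the outer edge of the gene record for Idi1, Cyp51, Fdps and Sc5d, but lies 43 bases inside it for Insig1 and 2847 bases inside it for Hmgcs1; distances below are from that site. Capitals mark matches, on either strand, to CCAAT, the box that binds NF-Y beside many SREBP sites, or to TGACG, the core of the cyclic AMP element.
Insig1 (GRCr8 chr4:8057720-8058019, minus strand): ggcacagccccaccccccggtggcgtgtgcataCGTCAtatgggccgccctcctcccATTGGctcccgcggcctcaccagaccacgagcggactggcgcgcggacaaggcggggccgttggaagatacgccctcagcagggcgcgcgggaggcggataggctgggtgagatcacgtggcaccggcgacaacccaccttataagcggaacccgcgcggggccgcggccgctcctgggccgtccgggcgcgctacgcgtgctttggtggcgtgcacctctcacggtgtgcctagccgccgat
Idi1 (GRCr8 chr17:66547475-66547774, minus strand): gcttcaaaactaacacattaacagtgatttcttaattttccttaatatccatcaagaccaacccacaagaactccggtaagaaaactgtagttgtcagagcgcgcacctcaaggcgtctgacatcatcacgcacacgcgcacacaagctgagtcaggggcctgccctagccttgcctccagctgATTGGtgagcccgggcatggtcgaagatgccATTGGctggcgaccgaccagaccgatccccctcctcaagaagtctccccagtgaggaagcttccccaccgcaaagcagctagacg
Cyp51 (GRCr8 chr4:30991443-30991742, plus strand): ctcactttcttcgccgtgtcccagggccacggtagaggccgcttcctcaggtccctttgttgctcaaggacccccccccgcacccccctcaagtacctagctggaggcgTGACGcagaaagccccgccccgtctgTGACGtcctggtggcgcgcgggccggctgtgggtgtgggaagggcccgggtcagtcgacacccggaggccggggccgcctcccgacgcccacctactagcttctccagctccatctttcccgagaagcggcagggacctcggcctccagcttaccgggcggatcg
Fdps (GRCr8 chr2:176804767-176805066, minus strand): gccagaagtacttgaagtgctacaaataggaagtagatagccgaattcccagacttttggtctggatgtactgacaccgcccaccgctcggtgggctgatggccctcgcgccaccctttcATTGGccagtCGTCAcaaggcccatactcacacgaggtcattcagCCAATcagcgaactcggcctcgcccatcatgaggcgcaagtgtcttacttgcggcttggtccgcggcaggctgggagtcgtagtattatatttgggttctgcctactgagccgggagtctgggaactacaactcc

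Of the 8 genes, 6 had such a window, and Sqle and Fdft1 had none. A sterol element bound by SREBP, searched in the loose form TCACNCCAC, was found in none of the 6 windows, and 1.12% of all 33469 windows of this length held it. The full cyclic AMP element TGACGTCA was in none of the 6 either (1.83% of all windows), nor was AAGGTCA, a core of the sites bound by NR4A receptors (4.61%). CCAAT was found once in the Insig1 window, 193 bases before the start, at 2 places in that of Idi1, 66 and 35 bases before it, at 2 places in Fdps, at 2 in Hmgcs1 and once in Sc5d. The Cyp51 window had no CCAAT, and 37.5% of all windows had one. TGACG, which every full element also contains, was found at 2 places in Cyp51, 141 and 115 bases before the start, and once each in Insig1 (217 bases before), Fdps and Sc5d. It was absent from the Idi1 and Hmgcs1 windows, and 21.2% of all windows held it. These matches are letters in a short window, and the genes that rose and those that were not called both had them.

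**Figure D1:**
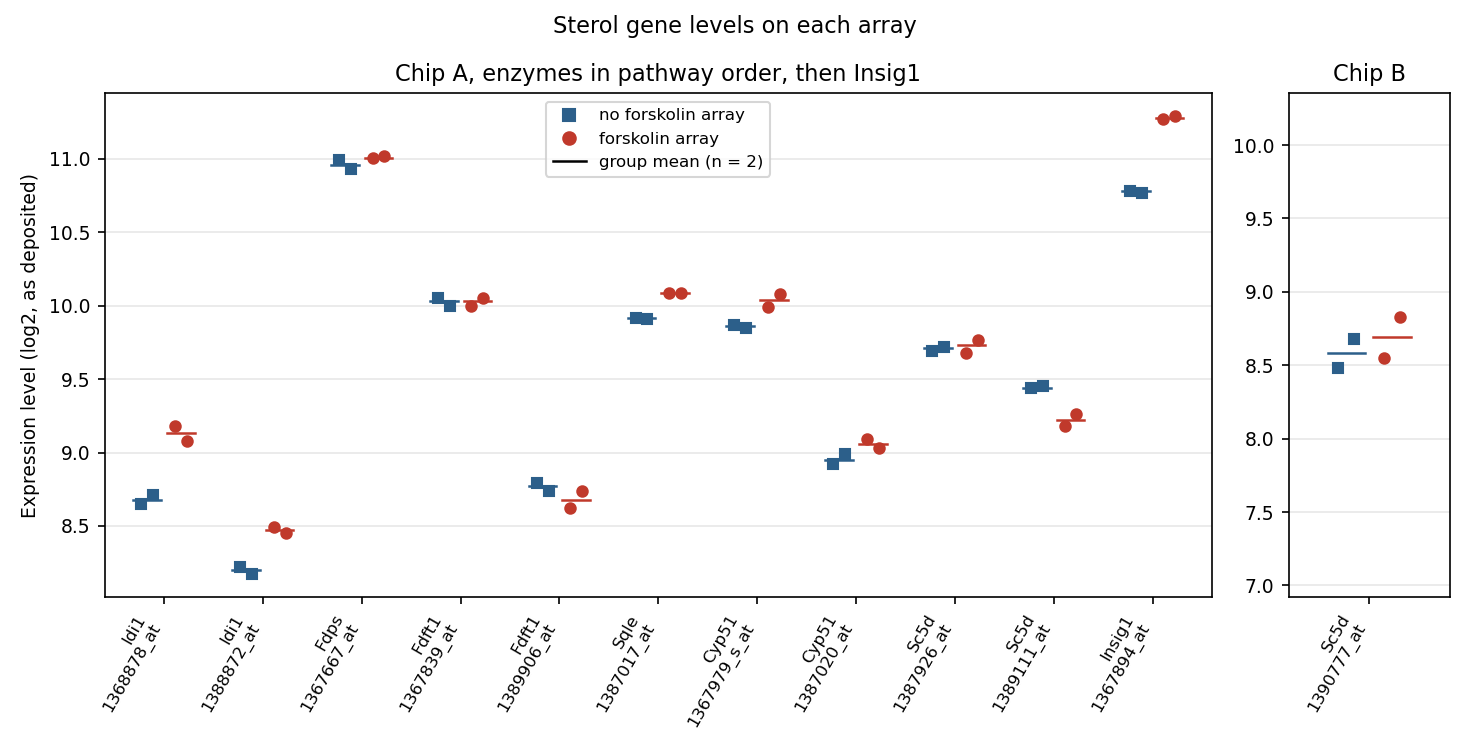
Expression level (log2, as deposited) of each sterol probe set on every array; squares are arrays without forskolin, circles are forskolin arrays and bars are group means of 2 arrays. The panels cover the same span of log2 units but are not on 1 scale. Insig1 at 11.27 and 11.29 with forskolin stands clear of 10.78 and 10.77 without it, whereas the Fdft1 probe set 1367839_at overlaps.

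Idi1, the isomerase that converts isopentenyl pyrophosphate to dimethylallyl pyrophosphate, is the earliest of the listed enzymes with data here. Its brighter probe set, 1368878_at, measured 8.65 and 8.71 (log2) without forskolin and 9.18 and 9.08 with it. The forskolin arrays lay above both controls by at least 0.36. The rise was 0.44 ± 0.05 (log2, SE, n = 2, limma adjusted p = 0.00121), with a 95% interval of 1.26-fold to 1.47-fold. The dimmer probe set, 1388872_at, measured 8.22 and 8.17 without and 8.49 and 8.45 with forskolin, and here too the groups lay apart. It rose by 0.27 ± 0.04 (limma adjusted p = 0.0139), or 1.21-fold, with 0.0672 without forskolin replicate 1.

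Fdps, which joins isoprenoid units into farnesyl pyrophosphate, had 1 probe set, 1367667_at. It measured 10.99 and 10.93 without forskolin and 11.01 and 11.02 with it. Each forskolin array lay above each control, the nearest of them by 0.02. The change was 0.05 ± 0.04 (log2, SE, n = 2, limma adjusted p = 0.467), and its 95% interval of 0.98-fold to 1.10-fold lies wholly below that of Idi1 1368878_at.

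Fdft1, the squalene synthase that commits farnesyl pyrophosphate to sterols, had 2 probe sets. The brighter one, 1367839_at, measured 10.05 and 10.00 without and 10.00 and 10.05 with forskolin. Both groups covered the same range, and the 95% interval of the change was -0.09 to 0.09 (log2, limma adjusted p = 1.00). The dimmer, 1389906_at, measured 8.79 and 8.74 without and 8.62 and 8.74 with forskolin. Its second forskolin array lay at the level of the lower control, and the change of -0.09 ± 0.05 was not called (limma adjusted p = 0.416).

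Sqle, the squalene epoxidase that carries out the first oxygen-requiring step of the pathway, had 1 probe set, 1387017_at. It measured 9.92 and 9.91 without forskolin and 10.09 on both forskolin arrays. The gap between the groups was 0.17, about the whole change, with a replicate SD of 0.01 or less in each. It rose by 0.17 ± 0.04 (log2, SE, n = 2, limma adjusted p = 0.0383). The call was lost when any 1 array was left out, with an adjusted p of 0.113 (replicate 1) and 0.130 (replicate 2) when the array left out was a forskolin array, and 0.0728 (replicate 1) and 0.118 (replicate 2) when it was a control. Dropping the intensity trend of eBayes (0.0624) or the brightness filter (0.0519) also ended it, while the change itself stayed between 0.17 and 0.18.

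Cyp51, the cytochrome P450 that takes a methyl group off lanosterol, had 2 probe sets and neither was called. The brighter, 1367979_s_at, whose suffix marks probes that can match more than 1 transcript, measured 9.87 and 9.85 without and 9.99 and 10.08 with forskolin. The dimmer, 1387020_at, measured 8.92 and 8.99 without and 9.09 and 9.03 with forskolin. On both, each forskolin array lay above each control. The changes were 0.18 ± 0.04 (log2, SE, n = 2, limma adjusted p = 0.0664) and 0.11 ± 0.05 (0.273). The 95% interval of the first, 1.06-fold to 1.21-fold, nearly coincides with that of Sqle, 1.07-fold to 1.19-fold, and the threshold for a call falls between this pair. Under quantile normalization and median centring the first Cyp51 probe set was called higher (0.0304 and 0.0239).

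Sc5d, the desaturase that puts a late double bond into the sterol ring, had 3 probe sets. On chip A, 1387926_at measured 9.69 and 9.72 without and 9.68 and 9.77 with forskolin, and the groups overlapped. Its change was 0.02 ± 0.04 (log2, SE, n = 2, limma adjusted p = 0.886). The other on that chip, 1389111_at, measured 9.44 and 9.45 without and 9.18 and 9.26 with forskolin. Both forskolin arrays lay below both controls by at least 0.18. It fell by 0.22 ± 0.04 (limma adjusted p = 0.0287), or 1.17-fold, with 0.122 without forskolin replicate 1. On chip B, 1390777_at measured 8.48 and 8.68 without and 8.55 and 8.83 with forskolin, so each group spread more widely than the means differed and the groups overlapped, as they did in all but 32.7% of the tested probe sets of that chip. Its change was 0.11 ± 0.12 (limma adjusted p = 1.00), and its 95% interval, -0.17 to 0.39, overlaps both that of 1387926_at, -0.08 to 0.12, and that of 1389111_at, -0.32 to -0.12.

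**Figure D2:**
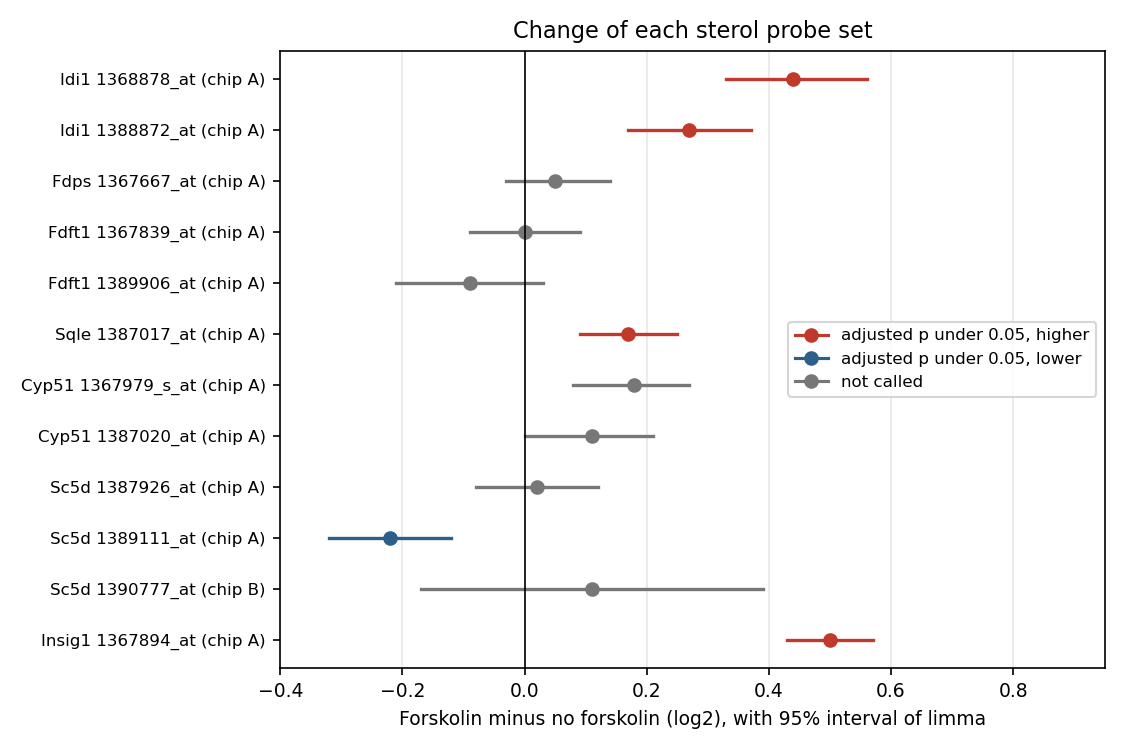
Change with forskolin (forskolin minus no forskolin, log2) of each of the 12 probe sets, enzymes from the top in pathway order and Insig1 last; points are limma estimates and lines 95% intervals. Insig1 (0.50) and Idi1 (0.44) lie to the right of the other genes, and 1389111_at of Sc5d is the one called lower.

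Insig1, the brake on SREBP, had 1 probe set, 1367894_at. It measured 10.78 and 10.77 without forskolin and 11.27 and 11.29 with it. The gap between the nearest arrays of the groups was 0.49, against a replicate SD of 0.01 or less in each group. It rose by 0.50 ± 0.03 (log2, SE, n = 2, limma adjusted p = 3.42e-05), with a 95% interval of 1.35-fold to 1.49-fold. The size of this change exceeded that of 99.1% of the tested probe sets of chip A, and that of Idi1 1368878_at exceeded 98.9%. The interval of Insig1, 0.43 to 0.57 (log2), overlaps that of Idi1 1368878_at, 0.33 to 0.56, but not that of Idi1 1388872_at, 0.17 to 0.37, and the difference between the genes was not tested. Across the 11 alternative analyses of chip A, Insig1 stayed between 0.49 and 0.52 and the brighter Idi1 probe set between 0.40 and 0.49, both called in each.

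Groups that do not overlap were common on chip A: 48.5% of tested probe sets had them, 20.4% with forskolin above and 28.0% with it below. Among the sterol probe sets there, 7 of 11 had forskolin above, 2 below and 2 overlapped, counting any gap above 0; that of Fdft1 1389906_at, one of those below, was 0.00 to 2 decimals.

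Probe sets of 1 gene were also compared within each array, which removes any difference in scale between arrays. The Sc5d sets differed by 0.25 and 0.28 without forskolin and by 0.49 and 0.51 with it (log2, 1387926_at minus 1389111_at). The groups lay apart, with a mean difference of 0.26 without and 0.50 with forskolin. For Idi1 the difference was 0.43 and 0.54 without and 0.69 and 0.63 with forskolin, and the brighter set rose by 0.17 more than the dimmer. For Fdft1 it was 1.25 and 1.26 without and 1.39 and 1.31 with forskolin, and for Cyp51 0.95 and 0.86 without and 0.90 and 1.05 with it, where the groups overlapped. An exact two-sided permutation test gave p = 0.333 for Idi1, Fdft1 and Sc5d, the smallest p that 2 arrays against 2 allow, and 0.667 for Cyp51. The annotation ties 1368878_at of Idi1 and 1367839_at of Fdft1 to a RefSeq transcript and their partners, like all Sc5d and Cyp51 sets, to other GenBank entries. Which transcripts each set detects was not tested. Averaging the probe sets of each gene on chip A left 3 genes called, Insig1 at 0.50, Idi1 at 0.36 and Sqle at 0.17, with Cyp51 at 0.14 (limma adjusted p = 0.0843) and Sc5d at -0.10 (0.251).

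**Figure D3:**
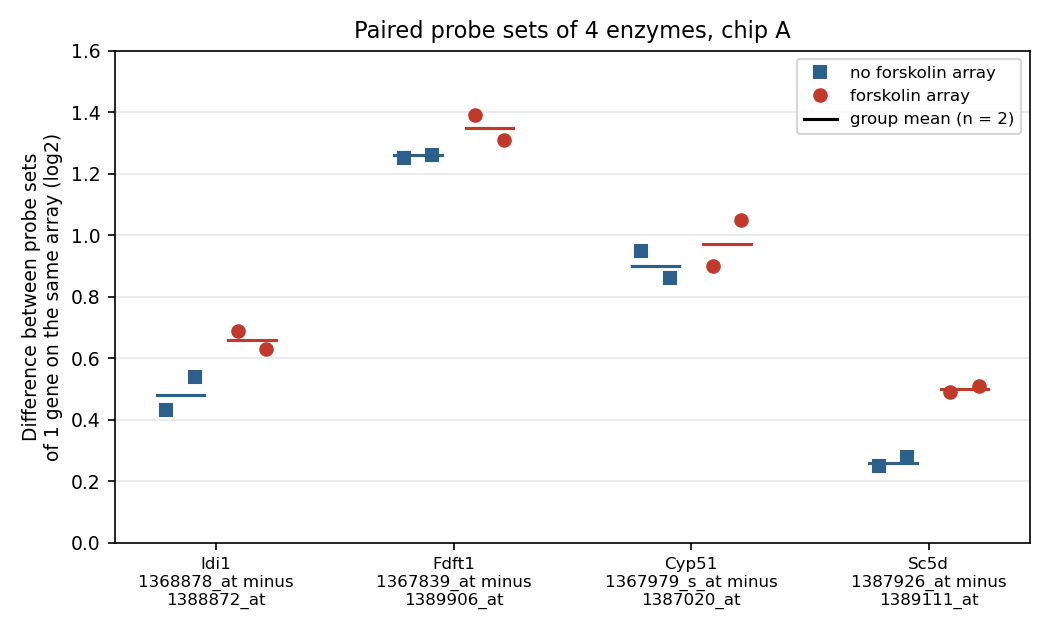
Difference between the 2 chip A probe sets of a gene on the same array (log2, brighter minus dimmer), for the 4 enzymes with a pair; squares are arrays without forskolin, circles forskolin arrays and bars group means. For Sc5d the forskolin arrays sit at 0.49 and 0.51 and the others at 0.25 and 0.28, while the Cyp51 groups overlap.

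The rest of the pathway was read from lists of named genes, each gene through its brightest tested probe set. Leaving out the 8 genes above, 20 genes of the mevalonate steps, the sterol steps and sterol sensing were tested, all on chip A. Of these, limma called none, beside 3.30% of all tested probe sets of that chip, so the count lies near that share. At an unadjusted p under 0.05 (limma), 2 were higher and 2 lower. That threshold was passed by 7.10% of the tested probe sets of chip A higher and 10.3% lower. The median change of the 20 genes was 0.00 (log2), with 10 above and 10 below 0. Before Idi1 in the pathway, Pmvk, which phosphorylates phosphomevalonate, measured -0.15 (limma adjusted p = 0.216), and Mvd, which makes isopentenyl pyrophosphate, -0.11 (0.235). Over 11 alternatives the change of Pmvk lay between -0.22 and -0.07. Between Cyp51 and Sc5d, the methylsterol oxidase Msmo1 measured 0.14 (0.174).

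Among sterol sensing genes, Insig1 was the only one called of 9 tested, beside 3.30% of all tested probe sets of chip A. Its relative Insig2 measured 9.11 and 9.17 without and 9.04 and 9.12 with forskolin, a change of -0.06 with a 95% interval of -0.16 to 0.04 (log2), which does not reach that of Insig1. Srebf2, the SREBP gene of sterol synthesis, measured 0.04 (-0.04 to 0.12). Srebf1, the other SREBP gene, measured 0.04 on its brighter probe set and 0.14 on the dimmer (limma adjusted p = 0.615 and 0.163). Rnf139, a ubiquitin ligase of the endoplasmic reticulum that binds Insig proteins, measured 8.31 and 8.23 without and 8.63 and 8.46 with forskolin. The groups lay apart, but its change of 0.28 ± 0.06 missed the threshold (limma adjusted p = 0.0523), and it was called higher in 5 of 11 alternatives (0.00602 to 0.159 over all of them). Mbtps1, the protease that makes the first cut in SREBP, measured -0.05 (-0.13 to 0.03).

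Outside synthesis, limma called 0 of 6 tested genes of sterol uptake, transport and storage, 5 on chip A and 1 on chip B. Over all tested probe sets, 3.30% were called on chip A and 0.159% on chip B. None of the 6 had an unadjusted p under 0.05 on its brightest tested probe set (limma). Scarb1 measured 0.09, Lipa -0.06 and Npc2 -0.05. Stard4, on chip B, measured -0.02 on its brightest probe set and 0.14 and -0.19 on the others. The last had an unadjusted p of 0.0474 and an adjusted p of 0.977 (limma). Of 4 tested efflux genes, Abcg1, a sterol exporter, fell by 0.21 ± 0.04 (log2, SE, n = 2, limma adjusted p = 0.0326). That call rests on 1 of 3 tested probe sets, the others measuring -0.06 and -0.03, and was lost in 5 of 11 alternatives, among them leaving out forskolin replicate 1 (0.120), forskolin replicate 2 (0.0718) or no forskolin replicate 2 (0.115). Abca1, on chip B, measured -0.12 and Mylip 0.04 without a call. None of 9 genes of the isoprenoid side branches was called, beside the shares given above for each chip (1 lower at an unadjusted p under 0.05, limma). Among them Fnta, a subunit shared by some of the prenyl transferases, measured -0.16 (limma adjusted p = 0.0538). It was called lower in some alternatives, among them quantile normalization (0.0305), median centring (0.0140) and a filter at the 50th percentile (0.0489). Over all 11 alternatives the change of Fnta lay between -0.19 and -0.13. Rabggta measured -0.08 and Fntb -0.06.

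Of 10 fatty acid genes driven by SREBP, Scd, a stearoyl-CoA desaturase, rose and none fell. It measured 8.16 and 8.10 without forskolin and 8.46 and 8.38 with it, a rise of 0.29 ± 0.05 (log2, SE, n = 2, limma adjusted p = 0.0127), or 1.23-fold; without forskolin replicate 1 the adjusted p was 0.0638. Its relative Scd2 measured -0.10 (0.165) and Elovl6 0.08. The median of this list was 0.01. Over all 56 tested genes of the 7 lists, of which 52 were on chip A, 4 rose, 1 fell and the median change was 0.00, with 28 above and 28 below 0. Of the 4 that rose, 3 were the sterol genes already described (Insig1, Idi1 and Sqle). Over all tested probe sets of chip A 2.03% were called higher and 1.26% lower. The lists, like those genes, were chosen with earlier results of these data known.

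**Figure D4:**
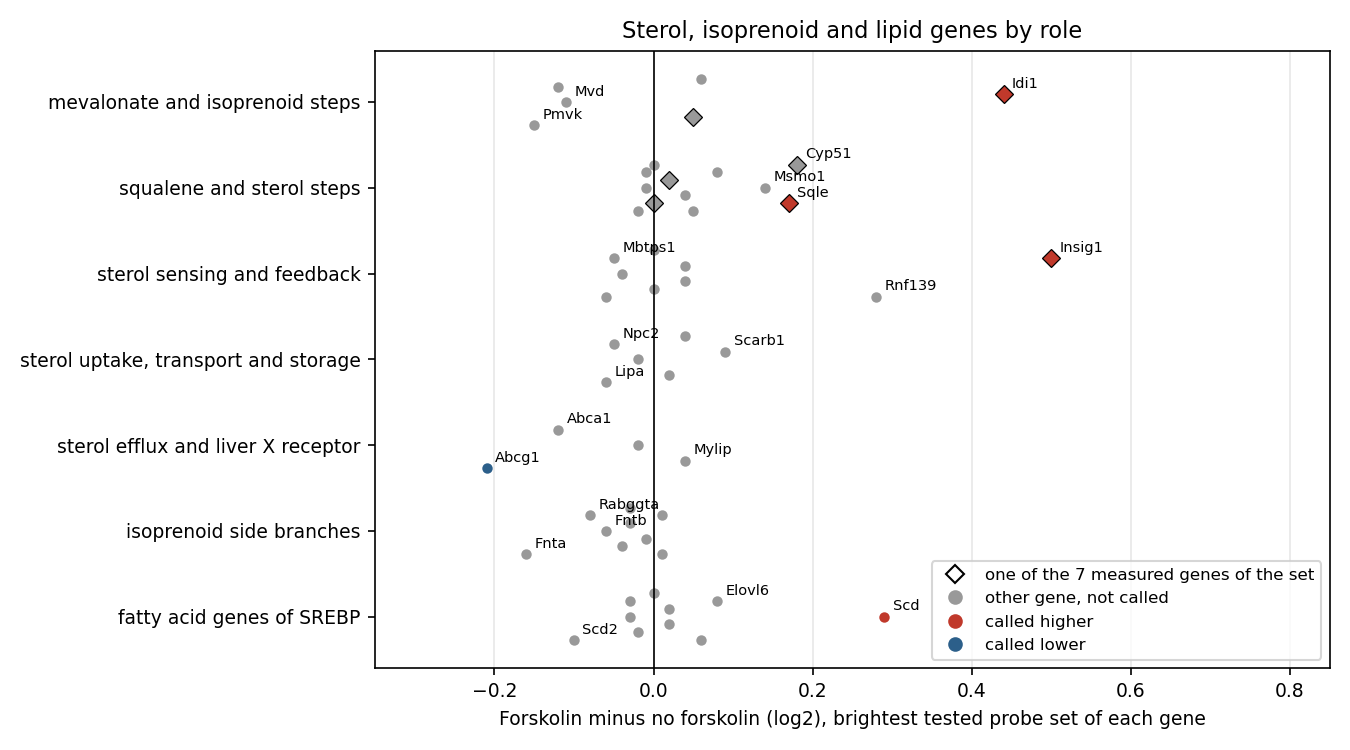
Change with forskolin (forskolin minus no forskolin, log2) of every tested gene of the 7 lists, 1 point per gene. Each point is the brightest tested probe set on chip A, or on chip B where chip A had none. Vertical position within a list has no meaning, diamonds mark the sterol genes followed here, and colours mark limma calls. Insig1, Idi1, Scd and Sqle are called higher and Abcg1 lower, and most other genes lie close to 0.

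The genes of chip A whose values over the 4 arrays lay nearest to those of Insig1, after each was centred on its own mean, were Ifrd1, Rcan1, Snx18, C2cd4b and Dclk1. The root mean square distance to Insig1 was 0.010 for Ifrd1, 0.015 for Rcan1, 0.018 for Snx18, and 0.020 for C2cd4b and for Dclk1 (log2). Each rose by 0.49 to 0.52, as Insig1 did. Nearer probe sets were counted only among tested chip A probe sets that carried 1 gene symbol. Of the sterol genes, Idi1 1368878_at came closest at a distance of 0.055, with 22 such probe sets nearer. Sqle, called, and Cyp51 1367979_s_at, not called, both lay at 0.164, with 185 and 187 nearer. With 4 arrays this measure mostly orders genes by how nearly their change equals that of Insig1.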

How the data were processed

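Per the labels, total RNA of rat PC12 cells was measured on 8 arrays, 2 per chip and treatment. The authors deposited 1 log2 expression value per probe set and array, in 1 table per chip; the sources used here do not say how background, probe summary and scaling were handled. Base 2 was read from the values: as natural logarithms, 3063 values of chip A would pass the range of a 16-bit scanner, and as log2 values 0 do. The tables hold 0 probe sets named as controls and no detection calls, so background was not checked. The number of arrays limits the precision.

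Each chip was analysed alone, with the deposited scaling, since array medians lay within 0.1. A filter at the 30th percentile of the mean linear value left 11106 of 15866 probe sets of chip A and 10693 of 15276 of chip B to test. Forskolin was compared with no forskolin by limma 3.58.1 in R 4.3.3 (lmFit, eBayes with an intensity trend, two-sided, Benjamini-Hochberg over every probe set tested on a chip), and the script was tested on simulated data. Symbols came from GEO's platform annotation, updated by gene number to RefSeq (GRCr8): 12783 probe sets on chip A carried 1 symbol, 312 several and 2771 none, and on chip B 7564, 100 and 7612. By gene number 12748 and 7524 matched.

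The genes and lists were chosen with earlier results of these data known. The text names every probe set of the 8 genes and list genes called or among the 3 smallest p of a list. It also names the 5 genes nearest to Insig1 and a check panel. Insig2, Srebf2, Srebf1, Stard4 and the named markers were added after the values were seen. The alternatives were other eBayes priors, filters and scalings, gene means, a replicate block and leaving out each array.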

Additional observations from a re-analysis of the deposited data

How the results depend on the processing

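Insig1 and the brighter Idi1 probe set were called higher in all 11 alternatives run on chip A, and Fdps and both Fdft1 probe sets in none. Leaving out 1 array gave 2 to 3 sterol probe sets called higher on chip A (4 with all arrays) and 0 to 1 called lower (1 with all arrays), the lowest of both without forskolin replicate 1. The replicate block gave 2 and 0. In the block, the adjusted p was 0.0534 for Idi1 1388872_at, 0.0930 for Sqle and 0.0819 for Sc5d 1389111_at. The replicate numbers were not taken to pair the arrays: deviations of same-numbered arrays correlated at 0.00 on chip A and 0.20 on chip B, with 2 pairs each. Over all probe sets of chip A, 140 were called lower; median centring gave 277, the replicate block 46 and leaving out 1 array 79 to 198 (79 and 85 without forskolin replicates 1 and 2). Leaving out 1 array gave 165 to 256 called higher, against 226. On chip B, where 16 were called higher and 1 lower, quantile normalization gave 27 and 3, the replicate block 15 and 2, and leaving out 1 array 8 to 47 and 0 to 50 (34 and 50 without no forskolin replicate 1, 47 and 7 without no forskolin replicate 2, 8 and 1 without forskolin replicate 2, 12 and 0 without forskolin replicate 1). The sterol probe set there was called in no alternative. Without forskolin replicate 2 the change of Sc5d was -0.03 on 1387926_at and -0.03 on 1390777_at, the opposite sign, without a call. The cause of these shifts was not tested.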
